A study of Mus musculus with 24 samples.

Results

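The genes described here encode the matrix metalloproteinases (Mmp), the ADAMTS proteases (Adamts) and the tissue inhibitors of metalloproteinases (Timp), followed with age in white adipose tissue (WAT), kidney, lung and liver of mice. Members were the genes whose RefSeq symbol, reached from the accession of an array probe, was Mmp, Adamts or Timp followed by a number, and a further gene of this name form was not analysed. The array held 44 such genes of 22911 with a symbol: 21 Mmp, 19 Adamts and 4 Timp genes, read by 66 probes. The samples were total RNA from male C57BL/6J mice aged 10 weeks (10W, young) or 90 weeks (90W, aged). Each of the 8 groups of tissue and age held 3 mice, with 1 Agilent array in 1 colour for each sample and 24 arrays in all. The labels give no treatment and no genetic change, and they do not say whether the 4 tissues came from the same mice. The comparison of aged with young mice in each tissue asks how gene expression differs with age.

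Matrix metalloproteinases are zinc-dependent proteases, secreted or held in the cell membrane as inactive proenzymes, that cleave collagens, elastin, laminins and other proteins of the extracellular matrix as well as growth factors and cell surface proteins. ADAMTS proteases are secreted and carry thrombospondin repeats; some cut proteoglycans such as aggrecan and versican, some remove propeptides from fibrillar procollagens, and others act on microfibril proteins or von Willebrand factor. The Timp proteins bind and block the active sites of these enzymes, and the balance of protease and inhibitor is studied in fibrosis of kidney and liver, in emphysema of the lung and in the growth of fat depots.

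Each level below is the log2 of the background-subtracted signal relative to the 75th percentile of its array, so a level of 0 equals that percentile. Each change is the aged mean minus the young mean on this log2 scale, followed by its standard error after ±, from 3 mice of each age. A gene was tested in a tissue where 3 or more of its 6 arrays showed the probe well above background, and it was called higher or lower at a limma adjusted p under 0.05. With 3 mice in each group, exact permutation (two-sided) has 0.1 as its smallest possible p. Where the dimmer age stood well above background on none of its arrays, the difference is given as a lower bound ("at least"). For this bound each dim value was raised, where lower, to the dimmest probe still well above background on that array. The share of probes well above background ran from 58.6% to 71.1% among arrays, and arrays of a group correlated with each other at r of 0.942 to 0.995 across probes. Values of the 3 mice of a group are given in the order of their numbers, 1, 2 and 3, or 1, 2 and 4 for aged liver. Where a call was lost when a mouse was left out, the adjusted p without that mouse stands in parentheses. All 6 arrays of a tissue shared 1 slide and each tissue had its own, so tissue and slide cannot be told apart.

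Markers of each tissue were bright in the tissue of that label. Summed over 6 genes each, in multiples of the 75th percentile, the liver markers in liver came to 4220, 3850 and 3740 in the young and 2530, 2760 and 2900 in the aged mice, and the lung markers in lung to 1830, 1780 and 1840 in the young and 1640, 2370 and 1620 in the aged mice. Kidney markers in kidney came to 1130, 1180 and 1360 in the young and 516, 678 and 803 in the aged mice, all 3 aged mice below all 3 young ones, and white fat markers in WAT to 1310, 1690 and 1800 in the young and 1380, 1570 and 1790 in the aged mice. A few mice stood apart. In WAT of young mouse 1, 6 of 6 epididymis markers were well above background and their sum was 928, against 0.421 and 2.1 in the other young mice and 0.554, 0.378 and 0.479 in the aged mice. Neutrophil markers summed to 1580 in the liver of aged mouse 2, 1490 in the lung of aged mouse 2 and 982 in WAT of aged mouse 3, each above the other mice of its group. Liver markers summed to 225 in the lung of aged mouse 1, against 2.98 to 19.5 in the other lungs. White fat markers in lung summed to 136, 143 and 81.8 in the young and 9.57, 7.88 and 32.6 in the aged mice. For the members named below, a change that moved by over 1.5 times without 1 of these mice is given with and without it.

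The kidney held the most members called with age. There, 23 of 33 tested members were higher and 4 were lower in aged mice, while of all 31505 features tested 20.6% were higher and 42.6% lower. Mmp9, Mmp10 and Mmp24 passed the filter in kidney through the aged mice alone and could not have been called lower; without them 20 of 30 were higher and 4 lower. In liver, 10 of 27 tested members were higher and 3 lower, against 10.5% higher and 17.0% lower among 27906 features; without Mmp9 and Adamts5, which passed through 1 age alone, 9 of 25 were higher and 3 lower. In lung, limma called 0 of 32 tested members higher and 3 lower, against 2.72% higher and 2.89% lower among 30327 features. At an unadjusted p under 0.05 limma had 3 members higher and 9 lower, beside 2788 and 5377 of all features. Student's test at that level had 2 higher and 7 lower. WAT had 1 of 34 tested members higher and 2 lower, against 2.01% and 0.579% of 30063 features; without Adamts19 and Mmp10, which passed through 1 age alone, 1 of 32 was higher and 1 lower. The median change of the tested members was 0.78 in liver, -0.22 in lung, 1.62 in kidney and 0.07 in WAT, beside -0.20, -0.08, -0.23 and -0.05 over all features. Without the filter on dim probes, over all 44 members, the medians were 0.17, -0.19, 1.15 and -0.14. In whole tissue, more or fewer cells of a type and more or less RNA in each cell cannot be told apart.

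By family, the kidney calls were 12 of 15 Mmp genes higher and 0 lower (also 0 lower at an unadjusted p under 0.05), 9 of 14 Adamts genes higher and 3 lower, and 2 of 4 Timp genes higher and 1 lower. Liver had 3 of 11 Mmp genes higher and 1 lower, 5 of 12 Adamts genes higher and 2 lower, and 2 of 4 Timp genes higher. The Mmp genes called higher included Mmp9, Mmp10 and Mmp24 in kidney and Mmp9 in liver. These passed the filter there through the aged mice alone and could not have been called lower. The 3 lung calls were 2 Mmp genes and 1 Adamts gene, and the 3 WAT calls 1 Mmp gene higher, 1 Mmp gene lower and 1 Adamts gene lower. That Adamts gene, Adamts19, passed through the young mice alone and could not have been called higher. Of the 44 members, 39 were tested in at least 1 tissue; Adamts3, Mmp1a, Mmp1b, Mmp20 and Mmp25 were tested in none. Calls were made in 1 tissue for 18 members, in 2 tissues for 11 and in 3 tissues for 2, and in none for 8 of those tested. Mmp15 and Timp3 were each called higher in 1 tissue and lower in another; the kidney call of Mmp15 was lost with normexp background correction, and the kidney direction of Timp3 turned under quantile normalization.

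How the arrays were scaled moved these counts. Scaling to the spike-in control spots moved the median change of all features to -0.04 in liver, -0.24 in lung and 0.12 in kidney, and left it at -0.05 in WAT. The split of all features was then 2749 higher and 854 lower in liver (2928 and 4749 before), 574 and 1374 in lung (825 and 875), 9176 and 5220 in kidney (6483 and 13410), and 582 and 104 in WAT (605 and 174). The members were then 9 higher and 0 lower in liver, 1 and 4 in lung, 25 and 0 in kidney, and 1 and 2 in WAT. Of the 27 members called in kidney, 26 had the same sign under each of 5 ways of scaling and background correction, and Timp3 did not. In liver, lung and WAT the 13, 3 and 3 called members all had 1 sign. Changes of some dim members were smaller by over 1.5 times with normexp background correction. They came to 0.87 for Mmp7, 1.34 for Mmp12, 0.90 for Timp4 and -0.66 for Adamts18 in liver, to 0.92 for Adamts4 and 1.87 for Adamts8 in kidney and to -2.05 for Adamts16 in WAT. In liver the changes of Adamts9 and Adamts10 came to 0.56 and 0.40, with limma adjusted p of 0.0572 and 0.0887, and both calls were lost. The liver change of Adamts15, which was not called, came to 0.51. Some others are given below. Leaving out single mice moved the liver count of higher members to 4 without young mouse 1, 1 without young mouse 2, 5 without young mouse 3, and 6 without aged mouse 1 or aged mouse 2. The liver count of lower members came to 0 without young mouse 1 or 2. Calls over all features of the liver also fell, to 1768 higher and 1208 lower without young mouse 1 and 1497 and 997 without young mouse 2. They were 2183 and 3227 without young mouse 3, 2206 and 2627 without aged mouse 1 and 2392 and 2697 without aged mouse 2. The lung count of lower members came to 0 without young mouse 1 or 2 and 1 without young mouse 3, and its count of higher members to 3 without aged mouse 2 and 1 without aged mouse 3. All features of the lung then had 1 higher and 1 lower without young mouse 1, 16 and 8 without young mouse 2 and 142 and 76 without young mouse 3. They had 1088 and 746 without aged mouse 2 and 561 and 506 without aged mouse 3. In WAT the higher call was lost without any 1 of the 6 mice, and 1 lower call was left without any mouse but aged mouse 2. In these fits all features of WAT had 211 to 478 higher and 25 to 124 lower.

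**Figure D1:**
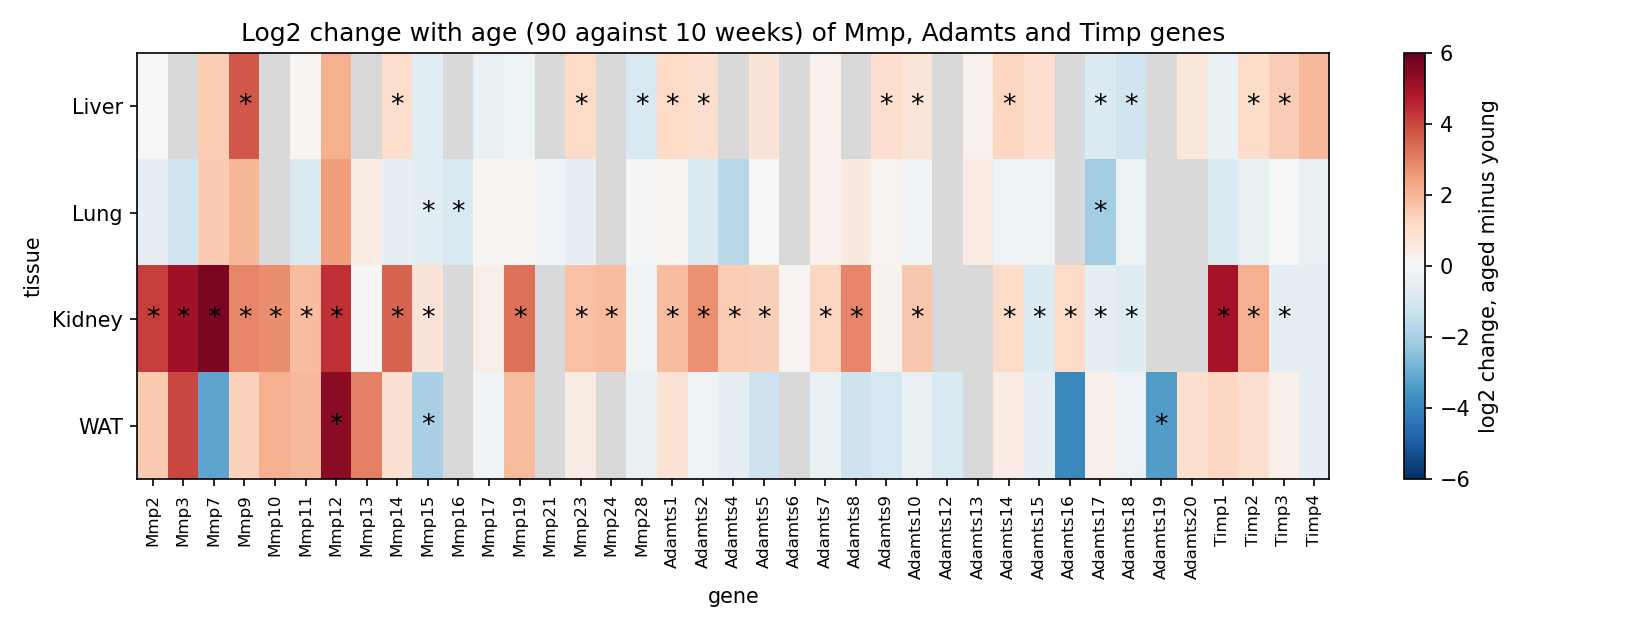
Log2 change from 10 to 90 weeks (colour) of each tested member (horizontal) in each tissue (vertical), with calls at limma adjusted p under 0.05 marked. Kidney shows 23 members higher and 4 lower (0 lower under spike-in scaling, and Timp3 at 0.07 under quantile normalization), against 10 and 3 in liver, 0 and 3 in lung and 1 and 2 in WAT.

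A group of 8 members lies together on chromosome 9, in the order Mmp13, Mmp12, Mmp1b, Mmp3, Mmp1a, Mmp10, Mmp20 and Mmp7. They encode collagenases (Mmp13, Mmp1a, Mmp1b), stromelysins (Mmp3, Mmp10), the macrophage elastase Mmp12, the enamel protease Mmp20 and the matrilysin Mmp7. Their promoters are shown because the members of this cluster that were called moved in the same direction in kidney. This direction was not particular to the cluster: of 15 Mmp genes tested in kidney, in and outside it, 12 were called higher and 0 lower. A link between the windows and the changes was not tested. RefSeq promoter windows were found for 30 of the 44 members, with 33 windows of 300 bases (250 before the start and 50 after) among 32851 in the table. The letters TGANTCA, the core to which AP-1 (Fos and Jun dimers) binds, were searched on both strands, as were TATAAA and GGGCGG, a GC box. TGANTCA was in 7.81% of all windows and in 8 of the 10 windows of the cluster, and in 0 of the 23 windows of other members. TATAAA was in 13.6% of all windows, in 8 of the 10 cluster windows and in 2 of the 23 others. GGGCGG was in 35.7% of all windows, in 0 of the 10 cluster windows and in 18 of the 23 others. All 8 member windows with TGANTCA also held TATAAA, as did 1.54% of all windows. The 120 bases from 100 before to 20 after the start are printed for Mmp13 (chr9:7272414-7272533, plus strand), Mmp12 (chr9:7347274-7347393, plus), Mmp3 (chr9:7445722-7445841, plus), Mmp10 (chr9:7502242-7502361, plus) and Mmp7 (chr9:7691990-7692109, plus), with TGANTCA and TATAAA in capitals. For contrast, Timp1 (chrX:20870066-20870185, plus) and Mmp14 (chr14:54431498-54431617, plus) are printed with GGGCGG, or its reverse complement, in capitals. All are from RefSeq on GRCm38.p6, 5′ to 3′.
Mmp13: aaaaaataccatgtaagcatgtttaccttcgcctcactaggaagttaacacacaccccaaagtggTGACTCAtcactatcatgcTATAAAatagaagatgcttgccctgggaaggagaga
Mmp12: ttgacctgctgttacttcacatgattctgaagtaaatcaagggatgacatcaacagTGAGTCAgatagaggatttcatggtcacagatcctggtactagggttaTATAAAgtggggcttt
Mmp3: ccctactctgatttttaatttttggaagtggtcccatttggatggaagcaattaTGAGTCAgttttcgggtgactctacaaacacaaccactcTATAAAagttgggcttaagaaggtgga
Mmp10: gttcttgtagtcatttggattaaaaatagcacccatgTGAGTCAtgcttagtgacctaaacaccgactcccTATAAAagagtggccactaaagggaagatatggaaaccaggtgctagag
Mmp7: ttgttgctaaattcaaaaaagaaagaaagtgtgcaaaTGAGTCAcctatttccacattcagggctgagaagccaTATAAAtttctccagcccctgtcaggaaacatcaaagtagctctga
Timp1: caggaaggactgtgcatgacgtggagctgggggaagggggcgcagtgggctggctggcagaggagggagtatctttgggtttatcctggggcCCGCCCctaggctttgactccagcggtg
Mmp14: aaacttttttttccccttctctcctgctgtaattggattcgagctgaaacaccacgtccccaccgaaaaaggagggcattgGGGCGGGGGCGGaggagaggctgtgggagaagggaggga
In these windows TGANTCA began 35 bases before the start in Mmp13, 44 in Mmp12, 46 in Mmp3, 63 in Mmp10 and 63 in Mmp7. A match of letters describes the window and is not a measured binding site, and Mmp12 and Mmp7 each have a further RefSeq start whose window lacks these letters.

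Kidney was the tissue in which most of the cluster was called: 4 of the 5 tested cluster members were higher and 0 lower (0 lower at an unadjusted p under 0.05), with a median change of 4.39, beside 20.6% higher, 42.6% lower and a median of -0.23 over all features. Mmp10 was well above background in the aged kidneys alone and so could have been called in 1 direction only; without it the count was 3 of 4. Among the other members tested in kidney, 19 of 28 were higher and 4 lower, with a median of 1.46. Of these, Mmp9 and Mmp24 also passed through the aged kidneys alone and could have been called in 1 direction only. Mmp7, matrilysin, which cleaves E-cadherin and several matrix proteins, had kidney levels of -4.61, -4.43 and -4.47 in the young mice and 1.69, 0.83 and 0.88 in the aged mice. Every aged kidney was above every young one and the gap was far wider than the spread within either age. The change was 5.63 ± 0.24, adjusted p = 3.85e-05, a 49.7-fold difference.

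Mmp3, stromelysin 1, which cleaves proteoglycans and fibronectin and activates other proenzymes, had kidney levels of -6.53, -5.78 and -5.08 in the young mice and -0.48, -0.62 and -1.21 in the aged mice. The young values lay near background, with 1 of 3 arrays well above it, and the ages did not overlap. Its change was 5.03 ± 0.39, adjusted p = 0.000222, and 3.03 with normexp background correction. Mmp12, the macrophage elastase, stood in kidney at -3.05, -3.10 and -3.16 in the young mice and 1.91, 1.2 and 0.74 in the aged mice. The young mice sat within a narrow band and all 3 aged mice lay above the 75th percentile of their arrays. The change of Mmp12 was 4.39 ± 0.28, adjusted p = 0.000128. Mmp10, stromelysin 2, chosen after its values were seen, was at least 3.76-fold higher in aged kidneys (adjusted p = 0.00413); with normexp background correction its change was 0.94 with an adjusted p of 0.000228, smaller than that bound but called. Mmp13, the main collagenase of rodents, was also chosen after its values were seen and was the fifth cluster gene tested in kidney, with a change of 0.06 ± 0.26, adjusted p = 0.849 and overlapping ages. The sign of this change was not stable. It was 0.31 without aged mouse 1, -0.22 without aged mouse 3, 0.42 under spike-in scaling and -0.04 with normexp background correction, and none of these was called.

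Outside the kidney, limma called 1 cluster gene, with 2 tested in liver, 4 in lung and 5 in WAT. That call was Mmp12 in WAT, with levels of -2.60, -0.33 and -1.15 in the young mice and 5.49, 4.25 and 2.47 in the aged mice. All 3 aged fat samples lay above all 3 young ones, with a wide spread in both ages. The change was 5.43 ± 0.90, adjusted p = 0.0423, and the call was lost without young mouse 1, 2 or 3 (0.0771, 0.0865 and 0.136) or aged mouse 1, 2 or 3 (0.119, 0.0967 and 0.0507). Mmp3 in WAT, chosen after its values were seen, was at -3.51, -1.78 and -3.12 in the young mice and 1.18, -0.15 and 2.61 in the aged mice. Its ages did not overlap, and it missed the threshold with a change of 4.02 ± 0.79, adjusted p = 0.0616.

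The next values of the cluster were also chosen after they were seen, because single mice decide them. Mmp12 in lung was at -3.29, -3.15 and -3.21 in the young mice and 0.65, -2.78 and -0.00 in the aged mice. Aged mouse 2 lay close to the young mice and the other 2 lay well above them. The change was 2.50 ± 0.86, adjusted p = 0.139, and without aged mouse 2 it was 3.54 with an adjusted p of 0.00435. Mmp3 in lung had a change of -1.18 ± 0.29, adjusted p = 0.0736, and -0.84 with an adjusted p of 0.0229 without the same mouse. Mmp7 in lung had a change of 1.57 ± 0.35, adjusted p = 0.0581, and it was called without aged mouse 2 (1.18 with an adjusted p of 0.0236), without aged mouse 3 (1.88 with an adjusted p of 0.0457), under quantile normalization (1.63 with an adjusted p of 0.0495) and under spike-in scaling (1.41 with an adjusted p of 0.0391). With normexp background correction it was 0.88 with an adjusted p of 0.1, and without aged mouse 1 1.66 with an adjusted p of 0.0879. Mmp13 in lung had 0.46 ± 0.59, adjusted p = 0.644, and it was 1.15 with an adjusted p of 0.0373 without aged mouse 2, 0.25 without aged mouse 1 and -0.03 without aged mouse 3. Mmp7 in liver had 1.54 ± 0.67, adjusted p = 0.121, and it was called under spike-in scaling (1.70 with an adjusted p of 0.0377) and without aged mouse 4 (2.13 with an adjusted p of 0.0495). Without aged mouse 2 it was 0.70 with an adjusted p of 0.089. Mmp12 in liver was at -4.59, -4.29 and -1.52 in the young mice and -2.99, 1.12 and -2.14 in the aged mice, where young mouse 3 overlapped the aged mice and aged mouse 2 was the highest (2.13 ± 1.21, adjusted p = 0.214). Without aged mouse 2 the liver change was 0.90 with an adjusted p of 0.505. Mmp7 in WAT was at 3.16, -6.78 and 0.43 in the young mice and -6.80, -2.18 and -3.71 in the aged mice. Young mouse 1, the sample with high epididymis markers, was the highest by far, followed by young mouse 3, and the ages overlapped. The change of Mmp7 in WAT was -3.17 ± 2.64, adjusted p = 0.551, and -1.05 with an adjusted p of 0.847 without young mouse 1. It was -6.02 with an adjusted p of 0.17 without young mouse 2 and -1.88 with an adjusted p of 0.811 without aged mouse 1.

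**Figure D2:**
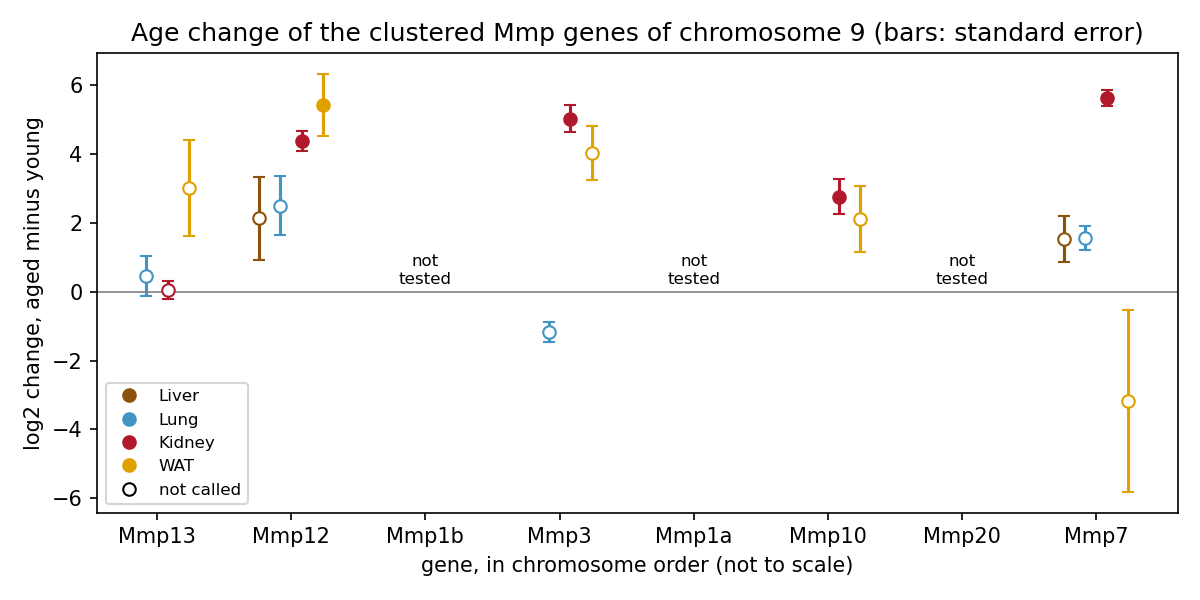
Log2 change from 10 to 90 weeks (vertical) of the chromosome 9 cluster genes in their order along the chromosome (horizontal), with points for the tissues in which each was tested. Kidney points of Mmp12, Mmp3 and Mmp7 lie at 4.39, 5.03 and 5.63 and that of Mmp13 at 0.06, and the WAT point of Mmp12 lies at 5.43.

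The gelatinases cut denatured collagen and the collagen of basement membranes. Mmp2, gelatinase A, a product of fibroblasts, had kidney levels of -2.77, -2.47 and -2.53 in the young mice and 2.07, 1.61 and 1.03 in the aged mice. The young kidneys were tightly grouped below the 75th percentile and the aged kidneys all lay above it. Its change was 4.16 ± 0.26, adjusted p = 0.000117, a 17.8-fold difference. Elsewhere limma made no call for Mmp2 in the fit of each tissue: its change was 0.02 ± 0.36, adjusted p = 0.97 in liver, -0.50 ± 0.33, adjusted p = 0.371 in lung and 1.57 ± 0.54, adjusted p = 0.196 in WAT. With all 24 arrays in 1 fit the WAT change was called, with an adjusted p of 0.0162 (0.0162 to 0.454 over 16 alternatives, 1 of them called). The liver value lay on either side of 0 as mice were left out (-0.19 without aged mouse 2) or the background correction was exchanged, and the lung value was -0.11 without aged mouse 2.

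Mmp9, gelatinase B, which neutrophils store in granules and macrophages secrete, had liver levels of -4.35, -5.10 and -4.63 in the young mice and 0.41, 0.25 and -3.59 in the aged mice. Aged mice 1 and 2 were high and aged mouse 4 was nearer the young mice, without overlap. Young livers were well above background on 0 of 3 arrays, so aged livers were at least 12.1-fold higher (adjusted p = 0.0362). The call was lost without young mouse 1, 2 or 3 (0.0877, 0.106 and 0.0788) or aged mouse 1 or 2 (0.0894 and 0.0859), and without aged mouse 4 the adjusted p was 0.00118. With normexp background correction the liver change was 2.24 with an adjusted p of 0.0504, smaller than that bound, and the adjusted p ranged from 0.00118 to 0.13 over 16 alternatives. A second probe had a liver change of 3.69 with an adjusted p of 0.054 over probes. Neutrophil markers summed to 28.6 and 1580 in the livers of aged mice 1 and 2 and to 20 in that of aged mouse 4, and their part in the result was not tested. In kidney, Mmp9 was at least 5.17-fold higher (adjusted p = 0.00888), chosen after its values were seen as were its changes in lung (1.97 ± 0.83, adjusted p = 0.195) and WAT (1.40 ± 0.53, adjusted p = 0.231). The kidney change with normexp background correction, 1.24 with an adjusted p of 0.00504, was called and smaller than the kidney bound. The lung change was 1.1 with an adjusted p of 0.245 without aged mouse 2, which had high neutrophil markers, and the WAT change 0.82 with an adjusted p of 0.213 without young mouse 1.

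The membrane-type enzymes sit on the cell surface. Mmp14, which cleaves fibrillar collagen and activates proMmp2, had kidney levels of -2.85, -3.19 and -3.50 in the young mice and 0.68, 0.42 and -0.17 in the aged mice. Each aged kidney was above each young kidney. The change was 3.49 ± 0.26, adjusted p = 0.000205, an 11.2-fold difference. In liver, Mmp14 was at -1.14, -0.66 and -0.92 in the young mice and 0.66, 0.09 and -0.37 in the aged mice, again without overlap but with a smaller gap. The liver change was 1.04 ± 0.28, adjusted p = 0.0366, a call lost without young mouse 1, 2 or 3 (0.112, 0.0767 and 0.0813) or aged mouse 1 or 2 (0.0726 and 0.0705). It was -0.49 ± 0.25, adjusted p = 0.262 in lung and 0.93 ± 0.38, adjusted p = 0.254 in WAT, where no call was made, and the lung value was -0.22 without aged mouse 2. Under spike-in scaling the liver change was 1.2 with an adjusted p of 0.051 (0.0172 to 0.112 over 16 alternatives).

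Mmp15, a second membrane-type enzyme, was called lower in lung and WAT and higher in kidney, where the call was lost with normexp background correction. In lung it was at 1.63, 1.46 and 1.73 in the young mice and 0.89, 0.85 and 1.04 in the aged mice. In WAT it was at -1.49, -1.51 and -1.13 in the young mice and -3.30, -2.76 and -3.84 in the aged mice. In both tissues all 3 aged mice lay below all 3 young mice, with a change of -0.68 ± 0.11, adjusted p = 0.029 in lung and -1.93 ± 0.31, adjusted p = 0.0381 in WAT. The lung call was lost without young mouse 1, 2 or 3 (0.132, 0.0888 and 0.0966) or aged mouse 1 or 2 (0.0563 and 0.0513), and the WAT call without young mouse 1, 2 or 3 (0.0713, 0.107 and 0.14) or aged mouse 1 or 3 (0.14 and 0.0734). In kidney Mmp15 was higher, by 0.77 ± 0.16, adjusted p = 0.00732, a value chosen after it was seen, and with normexp background correction the change was 0.30 with an adjusted p of 0.07. Under quantile normalization the WAT change was -1.85 with an adjusted p of 0.0529 (3.62e-05 to 0.155 over 16 alternatives). Mmp16, also of the membrane type, was low in lung, at -4.75, -4.80 and -4.97 in the young mice and -5.80, -5.84 and -5.65 in the aged mice. The aged lungs lay below the young ones, and 1 of 3 was well above background. The change of Mmp16 was -0.92 ± 0.11, adjusted p = 0.0147, and the call was lost without young mouse 1 or 2 (0.0819 and 0.0837). With normexp background correction the change of Mmp16 was -0.21 with an adjusted p of 0.453, a lost call, and the adjusted p ranged from 0.0128 to 0.453 over 16 alternatives. Mmp24 in kidney, chosen after its values were seen, was at least 1.63-fold higher (adjusted p = 0.00754), with young kidneys well above background on 0 of 3 arrays. With normexp background correction its change was 0.21 with an adjusted p of 0.237, smaller than that bound and not called.

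Of the remaining metalloproteinases, Mmp23 and Mmp28 were called in liver. Mmp23, a small enzyme anchored by its amino end, was at -2.36, -2.71 and -2.76 in the young mice and -1.12, -1.47 and -1.79 in the aged mice. All 3 aged livers lay above all 3 young ones (1.15 ± 0.22, adjusted p = 0.014), and the call was lost without young mouse 2 (0.059). Mmp28, epilysin, was at 1.30, 1.0 and 0.82 in the young mice and 0.18, -0.17 and 0.40 in the aged mice. Here the aged livers were the lower ones, with a change of -0.90 ± 0.21, adjusted p = 0.0254, and the call was lost without young mouse 1 or 2 (0.082 and 0.0803) or aged mouse 1 or 2 (0.0575 and 0.0541). Under spike-in scaling the change of Mmp28 was -0.74 with an adjusted p of 0.179 (0.00253 to 0.179 over 16 alternatives). Kidney calls of Mmp11, stromelysin 3 (1.87 ± 0.35, adjusted p = 0.00444), of Mmp19 (3.29 ± 0.83, adjusted p = 0.0139) and of Mmp23 (1.74 ± 0.15, adjusted p = 0.000346) were named after their values were seen. A second Mmp19 probe had a kidney change of 0.23 with an adjusted p of 0.163 over probes.

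**Figure D3:**
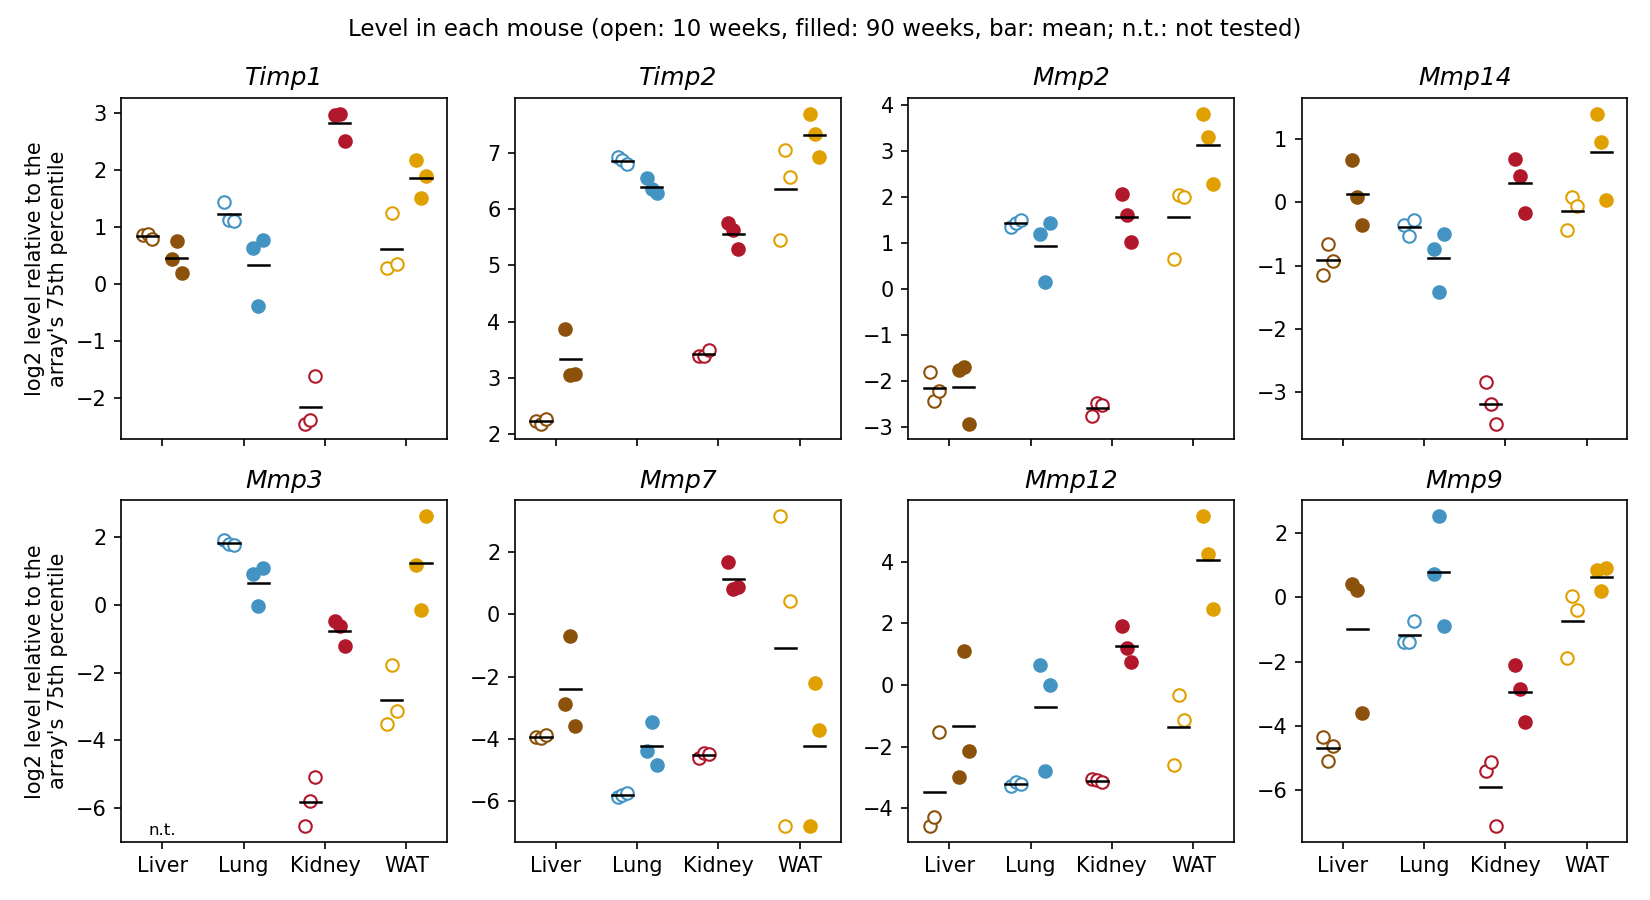
Level of 8 members in each mouse (points, log2 relative to the 75th percentile of the array) by tissue and age, with the mean of each group as a line. In kidney, Mmp7 is at -4.61 to -4.43 in young and 0.83 to 1.69 in aged mice, and Mmp2 at -2.77 to -2.47 and 1.03 to 2.07.

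The inhibitors split by gene and tissue. Timp1, a secreted inhibitor induced by cytokines, had kidney levels of -2.46, -2.39 and -1.62 in the young mice and 2.98, 3.0 and 2.51 in the aged mice. The young kidneys lay below the 75th percentile of their arrays and the aged kidneys well above it. The change was 4.99 ± 0.26, adjusted p = 6.54e-05, a 31.7-fold difference. No call was made for Timp1 in liver (-0.38 ± 0.19, adjusted p = 0.157), in lung (-0.89 ± 0.32, adjusted p = 0.15) or in WAT (1.24 ± 0.33, adjusted p = 0.117) in the fit of each tissue. With all 24 arrays in 1 fit its WAT change had an adjusted p of 0.00707, the 1 call of 16 alternatives (0.00707 to 0.332). Without aged mouse 2 the lung change was -0.53 with an adjusted p of 0.101.

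Timp2, which inhibits these enzymes and also takes part with Mmp14 in activating proMmp2, had kidney levels of 3.40, 3.40 and 3.49 in the young mice and 5.75, 5.63 and 5.28 in the aged mice. Within each age the kidneys were close together and the ages stood clearly apart (2.13 ± 0.13, adjusted p = 0.000119). In liver Timp2 was at 2.24, 2.19 and 2.27 in the young mice and 3.87, 3.05 and 3.07 in the aged mice, with all 3 aged livers above all 3 young ones. The liver change was 1.1 ± 0.25, adjusted p = 0.021, and that call was lost without young mouse 1, 2 or 3 (0.0659, 0.0754 and 0.05). In lung it was at 6.92, 6.87 and 6.80 in the young mice and 6.56, 6.35 and 6.29 in the aged mice, where aged mice lay below young mice and the change of -0.46 ± 0.10, adjusted p = 0.0625 missed the threshold; without aged mouse 1 the adjusted p was 0.0479, the 1 call of 16 alternatives (0.0479 to 0.463). In WAT the change was 0.96 ± 0.45, adjusted p = 0.303, and 0.51 with an adjusted p of 0.39 without young mouse 1. The joint fit of 24 arrays gave the WAT change an adjusted p of 0.0256 (0.0256 to 0.575 over 16 alternatives, 1 of them called).

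Timp3, the inhibitor bound to the matrix, which also blocks ADAM and ADAMTS proteases, was called in opposite directions in liver and kidney, although the kidney direction turned under quantile normalization. In liver it was at 1.35, 1.75 and 2.31 in the young mice and 3.02, 3.25 and 3.56 in the aged mice. In kidney it was at 6.79, 6.66 and 6.79 in the young mice and 6.22, 6.22 and 6.26 in the aged mice. Aged livers were all above young livers (1.48 ± 0.28, adjusted p = 0.0131; lost without young mouse 2 (0.0527)), and aged kidneys all below young kidneys (-0.52 ± 0.08, adjusted p = 0.00177). Under quantile normalization the change was 0.07 with an adjusted p of 0.495, and under spike-in scaling -0.16 with 0.335. Over 16 alternatives its kidney adjusted p ranged from 0.000675 to 0.495. The changes in lung, 0.03 ± 0.19, adjusted p = 0.93, and in WAT, 0.30 ± 0.46, adjusted p = 0.756, were not called. Without single mice the lung change was 0.01 (aged mouse 1) and -0.12 (aged mouse 2), and the WAT change -0.15 (young mouse 1) and 0.58 (aged mouse 3).

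Timp4, an inhibitor with restricted expression, was brightest in WAT among these tissues. Read by 1 probe, its mean level at 10 weeks was 4.54 ± 1.03 (SD) in WAT, against -1.35 in lung, -4.23 in kidney and -4.81 in liver. Its age change was 1.94 ± 1.16, adjusted p = 0.237 in liver, -0.44 ± 0.38, adjusted p = 0.491 in lung, -0.54 ± 0.26, adjusted p = 0.116 in kidney and -0.56 ± 0.60, adjusted p = 0.642 in WAT. The kidney change was called in 2 of 16 alternatives (0.0117 to 0.683), at -0.51 with an adjusted p of 0.0117 with normexp background correction and -0.80 with an adjusted p of 0.0243 without aged mouse 2. A second probe had a kidney change of the other sign, 0.23, with an adjusted p of 0.707 over probes. In liver a single sample made the mean, with -4.13, -5.30 and -4.99 in the young mice and -4.03, 0.09 and -4.67 in the aged mice. Without aged mouse 2, which also had the high neutrophil markers, the liver change of Timp4 was 0.46 with an adjusted p of 0.418. Its lung change was -0.04 without aged mouse 1 and -0.80 without aged mouse 2, and its WAT change -1.07 without young mouse 1 and -0.12 without aged mouse 3. At 10 weeks the other inhibitors were ordered differently by tissue, each read by a single probe. Timp2 was at 6.86 ± 0.06 in lung, 6.35 ± 0.82 in WAT, 3.43 ± 0.06 in kidney and 2.23 ± 0.04 (SD) in liver, where lung and WAT differed by less than the WAT spread. Timp3 was at 6.75 ± 0.07 in kidney, 5.89 ± 0.22 in lung, 4.54 ± 0.79 in WAT and 1.80 ± 0.48 in liver. Timp1 was lowest in kidney, at -2.16 ± 0.46, and stood at 0.62 ± 0.54 in WAT, 0.84 ± 0.05 in liver and 1.23 ± 0.19 in lung, WAT and liver differing by less than the WAT spread. Of the 39 members tested somewhere, the brightest tissue at 10 weeks was WAT for 16, lung for 11, liver for 9 and kidney for 3. This tally did not require the probe to stand well above background, and it does not rank the tissues for dim members. Mmp10 counted for liver at -5.31, with 0 of 3 young liver arrays well above background, and Adamts20 at -4.46, with 1 of 3. Mmp7 counted for WAT at -1.07 ± 5.14 (SD), where young mouse 1 was the highest.

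**Figure D4:**
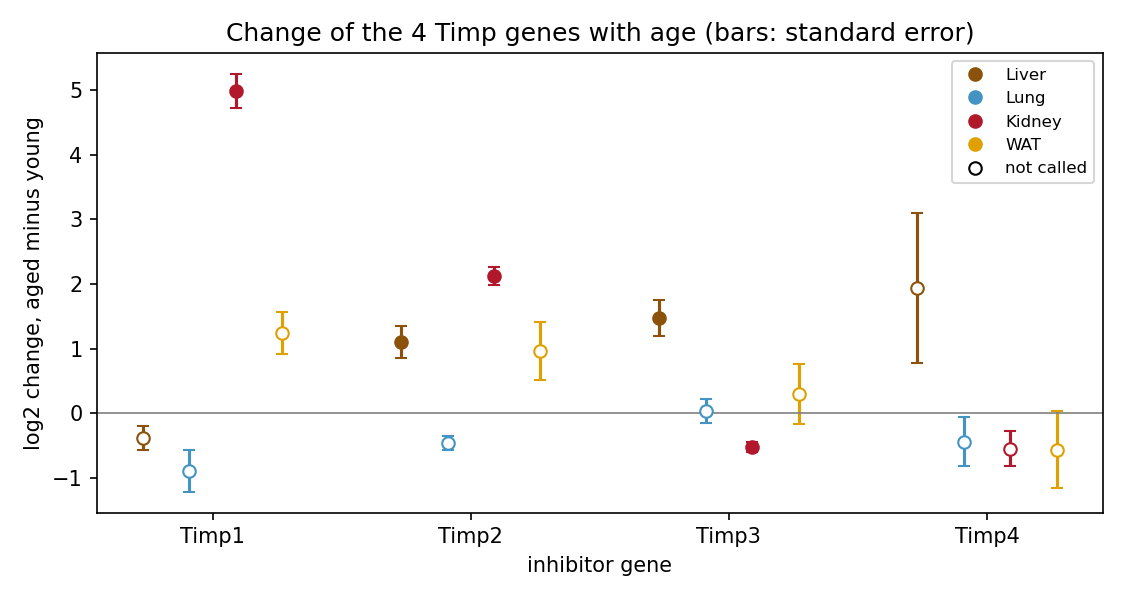
Log2 change from 10 to 90 weeks (vertical, bars are the standard error) of Timp1, Timp2, Timp3 and Timp4 (horizontal) in each tissue (colour). Open points were not called. Kidney Timp1 lies at 4.99 and Timp2 at 2.13, while Timp3 lies at -0.52 in kidney (0.07 under quantile normalization) and 1.48 in liver.

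Adamts14 and Adamts2, which remove the amino propeptide of fibrillar procollagens, were called in liver and kidney, in liver by 1 of 2 probes each. Adamts3, which also acts on procollagen, was well above background on 0 arrays and was not tested. Adamts14 in liver was at -1.68, -1.38 and -0.83 in the young mice and 0.23, 0.06 and -0.35 in the aged mice. Aged livers were above young ones (1.28 ± 0.27, adjusted p = 0.0173), a call lost without young mouse 1 or 2 (0.0563 and 0.066). Adamts2, chosen after its values were seen, was higher by 2.73 ± 0.18, adjusted p = 0.000136 in kidney and 0.99 ± 0.15, adjusted p = 0.00701 in liver, and Adamts14 also in kidney (1.12 ± 0.17, adjusted p = 0.00219). Second probes passed no test in liver, with changes of 0.30 (adjusted p of 0.4 over probes) for Adamts2 and 0.49 (0.134) for Adamts14. In kidney they had changes of 2.60 (0.000523) and 0.57 (0.0193).

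Adamts1, which cleaves versican and aggrecan, was at -0.33, 0.04 and -0.12 in the young mice and 0.61, 1.60 and 0.92 in the aged mice in liver. Aged mice were all above young mice (1.18 ± 0.27, adjusted p = 0.0231), and the call was lost without young mouse 1, 2 or 3 (0.0781, 0.0626 and 0.0555). In kidney, 4 genes whose products cut proteoglycans, chosen after their values were seen and not from a fixed list, were higher: Adamts1 by 1.83 ± 0.18, adjusted p = 0.000455, Adamts4 by 1.5 ± 0.41, adjusted p = 0.019, Adamts5 by 1.42 ± 0.36, adjusted p = 0.0136 and Adamts8 by 2.92 ± 0.33, adjusted p = 0.000724. The kidney call of Adamts4 was lost without young mouse 1 or 2 (0.0587 and 0.0566) or aged mouse 1 or 2 (0.0647 and 0.0569). Adamts9, which also cuts versican, was not called there (0.22 ± 0.12, adjusted p = 0.141), and under spike-in scaling it was, at 0.57 with an adjusted p of 0.0173. Adamts15, another such gene, went the other way in kidney, at 1.41, 0.72 and 1.03 in the young mice and 0.11, 0.25 and 0.35 in the aged mice. Its aged kidneys were all below the young ones (-0.82 ± 0.18, adjusted p = 0.00908), and under spike-in scaling the change was -0.46 with an adjusted p of 0.118 (0.00399 to 0.118 over 16 alternatives).

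Adamts17, which acts in the fibrillin microfibril network, was called lower with age in 3 tissues, with 1 probe in liver and kidney and a different probe in lung. Under spike-in scaling the lung call alone was made. In lung it was at -1.18, -2.27 and -2.27 in the young mice and -4.28, -4.04 and -3.62 in the aged mice. The aged lungs lay far below the young ones, of which mouse 1 was the highest. The lung change was -2.07 ± 0.35, adjusted p = 0.0315, and the call was lost without young mouse 1, 2 or 3 (0.0751, 0.0947 and 0.0817) or aged mouse 1, 2 or 3 (0.0607, 0.0604 and 0.0523). The probe used in liver and kidney had a lung change of -0.49 with an adjusted p of 0.157 over probes, and a further probe had -1.19 with 0.0282. In liver it was at -3.07, -3.24 and -3.42 in the young mice and -4.11, -4.11 and -3.98 in the aged mice, and in kidney at -3.85, -3.68 and -3.84 in the young mice and -4.32, -4.35 and -4.45 in the aged mice. Neither tissue showed overlap, with changes of -0.83 ± 0.16, adjusted p = 0.0144 and -0.58 ± 0.09, adjusted p = 0.00193; the liver call was lost without young mouse 1 or 2 (0.0536 and 0.0609). Under spike-in scaling the change was -0.66 with an adjusted p of 0.173 (0.00418 to 0.173 over 16 alternatives) in liver and -0.22 with an adjusted p of 0.24 (0.00112 to 0.24 over 16 alternatives) in kidney, and a second probe had a liver change of -0.27 with an adjusted p of 0.674 over probes. In WAT, probes of this gene had changes of 0.30 (adjusted p of 0.631 over probes, and a change of 0.53 without aged mouse 3) and -2.81 (0.0443). Among 45 pairs of gene and tissue with several probes, this pair and Timp4 in kidney were the 2 with opposite signs.

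Adamts18 was lower in liver, at -3.46, -4.04 and -4.10 in the young mice and -4.83, -4.81 and -5.59 in the aged mice. It was also lower in kidney, at -4.16, -3.90 and -4.07 in the young mice and -4.62, -5.08 and -4.58 in the aged mice. Aged and young mice did not overlap in either tissue (-1.21 ± 0.28, adjusted p = 0.0237 in liver and -0.72 ± 0.16, adjusted p = 0.00825 in kidney), and the liver call was lost without young mouse 1 or 2 (0.0735 and 0.0644). Under spike-in scaling the change was -1.05 with an adjusted p of 0.0575 (0.000861 to 0.085 over 16 alternatives) in liver and -0.37 with an adjusted p of 0.103 (0.00238 to 0.103 over 16 alternatives) in kidney. A second probe had a kidney change of -0.67 with an adjusted p of 0.0768 over probes. Adamts19, which has been tied to heart valve structure, was at -4.80, -3.92 and -4.65 in the young mice and -7.74, -7.94 and -7.76 in the aged mice in WAT. Aged fat was well above background on 0 of 3 arrays, so the gene was at least 2.27-fold lower (adjusted p = 0.00532). The call was made without each single mouse in turn and in 14 of 16 alternatives, with an adjusted p of 4.96e-05 to 0.0937. With normexp background correction the change was -1.01 with an adjusted p of 0.0658, a lost call and a change smaller than that bound. Adamts16 in WAT, chosen after its values were seen, was at -3.38, -1.92 and -1.57 in the young mice and -5.21, -5.52 and -7.68 in the aged mice, without overlap and short of the threshold (-3.85 ± 0.78, adjusted p = 0.0689).

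A test of whether the age change differed among the 4 tissues (limma's interaction test over the 24 arrays, 1 probe for each gene) called 21 of 39 members, against 31.2% of 34167 features. Timp1 had the smallest p: its changes were -0.38 in liver, -0.89 in lung, 4.99 in kidney and 1.24 in WAT (adjusted p = 3.69e-07). Mmp3 followed, with -1.18 in lung, 5.03 in kidney and 4.02 in WAT (5.9e-05). It was well above background on 0 of 6 liver arrays, so the liver difference that entered its test was one of background values. In the order of liver, lung, kidney and WAT, Mmp14 had 1.04, -0.49, 3.49 and 0.93 (0.000104), and Mmp2 0.02, -0.50, 4.16 and 1.57 (0.000162). In these 4 genes, kidney had the highest change. Mmp15, with -0.68, -0.68, 0.77 and -1.93 (0.00036), was positive in kidney alone of the 4 tissues. Its liver change, not called with all mice, was -0.98 without aged mouse 1, with a limma adjusted p of 0.0385. Without aged mouse 2 it was -0.39, with a limma adjusted p of 0.26. Adamts16, chosen after its values were seen, had 1.17 in kidney and -3.85 in WAT (0.000424). It was well above background on 0 of 6 arrays in liver and in lung, and its test also used the background values of those tissues. Mmp12 had positive changes in all 4 tissues, 2.13, 2.50, 4.39 and 5.43, and a difference among tissues was not called (adjusted p = 0.214). A difference among tissues was not called for Mmp9 either (adjusted p = 0.438). Without WAT of young mouse 1, the count was 26 in place of 21, and without young mouse 2 of each tissue it was 13. Mmp7 had an adjusted p of 0.037 with and 0.0537 without WAT of young mouse 1.

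The proteins that these enzymes act on were followed through 22 matrix genes. In kidney, 18 of 20 tested were higher and 1 lower, with a median change of 1.56 beside -0.23 for all features. In liver 8 of 20 were higher and 2 lower (median 0.67, all features -0.20), and in lung 1 of 21 was higher and 4 lower (-0.64, all features -0.08). In WAT limma called 0 of 20 in either direction, with 0 higher and 4 lower at an unadjusted p under 0.05 (-0.46, all features -0.05). Of all features, 20.6% were higher and 42.6% lower in kidney, 10.5% and 17.0% in liver, 2.72% and 2.89% in lung and 2.01% and 0.579% in WAT, and these shares stand beside each list and marker count below. Genes named here and in the next lists were chosen after their values were seen. In kidney the collagen gene Col1a1 was at 0.05, -0.22 and -0.24 in the young mice and 3.70, 3.64 and 3.08 in the aged mice, without overlap (3.61 ± 0.19, adjusted p = 6.48e-05). Fibronectin, Fn1, was higher there by 3.29 ± 0.16, adjusted p = 5.29e-05 and Col3a1 by 3.14 ± 0.20, adjusted p = 0.000118, while versican, Vcan, was lower (-0.76 ± 0.14, adjusted p = 0.00388). In lung, Vwf, von Willebrand factor, was higher (1.71 ± 0.26, adjusted p = 0.0245; lost without young mouse 1, 2 or 3 (0.108, 0.107 and 0.0866)). In liver, thrombospondin 1, Thbs1, was higher by 3.25 ± 0.69, adjusted p = 0.0181, a call lost without young mouse 1 or 2 (0.0528 and 0.0527). The liver count of higher matrix genes was 3 without young mouse 1 and 2 without young mouse 2, and that of lower ones was 0 without young mouse 1, young mouse 2 or aged mouse 4 and 1 without any other mouse. The lung count of higher ones was 0 without young mouse 1, 2 or 3. In lung the count of lower matrix genes was 0 without young mouse 1, 2 or 3, 7 without aged mouse 1, 5 without aged mouse 2 and 2 without aged mouse 3.

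Genes that activate or restrain these proteases, such as the plasminogen system, proprotein convertases and serpins, made a list of 18. Kidney had 10 higher and 8 lower of 18 tested (median 0.73), beside 20.6% higher and 42.6% lower of all features there, so the lower share was near that of all features. Liver had 4 and 1 of 17 (0.18; 10.5% and 17.0% of all features), lung 0 and 2 of 16 (0.02; 2 higher and 4 lower unadjusted by limma) and WAT 0 and 0 of 17 (-0.17; 3 higher and 2 lower unadjusted). Serpine2, a serpin that blocks thrombin and other serine proteases, was higher in kidney by 3.09 ± 0.13, adjusted p = 4.11e-05. Plasminogen itself, Plg, was lower there (-1.11 ± 0.24, adjusted p = 0.00725). The urokinase gene Plau was higher in liver (1.71 ± 0.30, adjusted p = 0.0112) and lower in kidney (-0.58 ± 0.08, adjusted p = 0.00115), and its receptor Plaur was higher in both (2.30 ± 0.64, adjusted p = 0.0392 in liver and 1.82 ± 0.21, adjusted p = 0.000717 in kidney). The liver call of Plaur was lost without young mouse 1, 2 or 3 (0.117, 0.104 and 0.0555) or aged mouse 1 (0.0654), and the liver count of this list was 2 higher without young mouse 2 and 0 lower without young mouse 1 or 2 or aged mouse 1 or 2. Its lung count of lower genes was 0 without young mouse 1, 2 or 3.

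Related metalloproteinases, the ADAM, ADAMTS-like, meprin and Bmp1 genes, made a list of 20. Kidney had 8 higher and 5 lower of 19 tested (median 0.18; 20.6% and 42.6% of all features), liver 6 and 0 of 17 (0.73; 1 lower unadjusted; 10.5% and 17.0% of all features), lung 0 and 1 of 17 (0.07; 0 higher unadjusted) and WAT 1 and 0 of 17 (-0.06; 1 lower unadjusted). Adam8, found on leukocytes, was at -3.62, -3.10 and -2.98 in the young mice and 2.21, 1.62 and 1.5 in the aged mice in kidney. The ages were far apart (5.01 ± 0.25, adjusted p = 5.59e-05), and the gene was also higher in WAT (4.81 ± 0.58, adjusted p = 0.0185), a call lost without young mouse 3 (0.0604) or aged mouse 1 or 3 (0.0716 and 0.0711). The liver count of this list was 3 higher without young mouse 1 or 2. Its lung count of lower genes was 0 without any mouse but aged mouse 1. The brush border meprins were lower in kidney, with changes of -3.26 ± 0.44, adjusted p = 0.00131 for Mep1b and -1.43 ± 0.24, adjusted p = 0.00271 for Mep1a. In the list of 14 transcription factor genes known to induce Mmp genes, kidney had 10 of 14 higher and 0 lower (median 1.16; 0 lower unadjusted; 20.6% and 42.6% of all features), liver 1 and 0 of 13 (0.39; 1 lower unadjusted), lung 0 and 0 of 14 (-0.08; 2 higher and 1 lower unadjusted) and WAT 1 and 0 of 14 (0.41; 0 lower unadjusted). The AP-1 genes Fos and Jun were higher in kidney, by 3.30 ± 0.84, adjusted p = 0.0144 and 1.48 ± 0.14, adjusted p = 0.000426. Fos was also higher in WAT (3.58 ± 0.56, adjusted p = 0.0361), a call lost without young mouse 1, 2 or 3 (0.0749, 0.0831 and 0.116) or aged mouse 1 or 2 (0.0974 and 0.0889). Over the fits without a single mouse, the count of higher factors was 7 to 12 in kidney, and in liver it was 0 without young mouse 2, aged mouse 2 or aged mouse 4.

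Markers of cell types that make these proteins also differed with age. Of 10 fibroblast markers, 10 of 10 were higher in kidney; their summed level was 20.8, 18 and 18.2 in the young and 112, 104 and 81.6 in the aged mice, and Col1a2 was the brightest (2.85). In liver 7 of 9 tested were higher, with sums of 69.7, 71 and 55.1 in the young and 136, 161 and 144 in the aged mice and Dcn the brightest. In lung 1 of 10 was higher and 2 lower (153, 156 and 119 in the young and 77.4, 76.7 and 86.6 in the aged mice, Dcn brightest), and in WAT limma called 0 of 10 (1 higher and 0 lower unadjusted; 209, 477 and 400 in the young and 498, 470 and 353 in the aged mice, Dcn brightest). No fibroblast marker was at background on every array of a tissue. The list shares Dcn, Col1a1 and Col1a2 with the matrix genes. In kidney these sums separated the ages as Mmp2, Mmp14 and Timp1 did. In liver the sums also separated the ages, where Mmp14 was called higher (1.04) and Mmp2 (0.02) and Timp1 (-0.38) were not called. The part of these cells in the results of either tissue was not tested.

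Macrophage markers were higher with age in 8 of 10 tested in liver (92.3, 123 and 93.2 in the young and 471, 376 and 365 in the aged mice), 7 of 9 in kidney (44.2, 37.3 and 41.3 in the young and 149, 120 and 101 in the aged mice) and 3 of 9 in WAT (53.2, 134 and 111 in the young and 582, 274 and 425 in the aged mice), and in lung limma called 0 of 10 (1 higher unadjusted; 178, 184 and 223 in the young and 216, 178 and 368 in the aged mice). Csf1r was the brightest in liver, kidney and WAT and Lyz2 in lung, and Clec4f, a marker of liver macrophages, was at background on every array of kidney and WAT. Neutrophil markers, 9 of the 10 listed being on the array, were called higher in 1 of 9 in liver (7.04, 4.37 and 9.75 in the young and 28.6, 1580 and 20 in the aged mice) and 1 of 9 in lung (54, 69.2 and 138 in the young and 314, 1490 and 164 in the aged mice), in 5 of 8 in kidney with 1 lower (3.04, 2.31 and 2.71 in the young and 10.9, 7.89 and 3.68 in the aged mice) and in 0 of 8 in WAT (1 higher unadjusted; 10.2, 6.35 and 98.5 in the young and 7.26, 78.2 and 982 in the aged mice). S100a9 was the brightest in liver, lung and WAT and Elane in kidney (-0.74), where Ngp was at background on every array. The part of these cells in the Mmp12 and Mmp9 results was not tested.

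**Figure D5:**
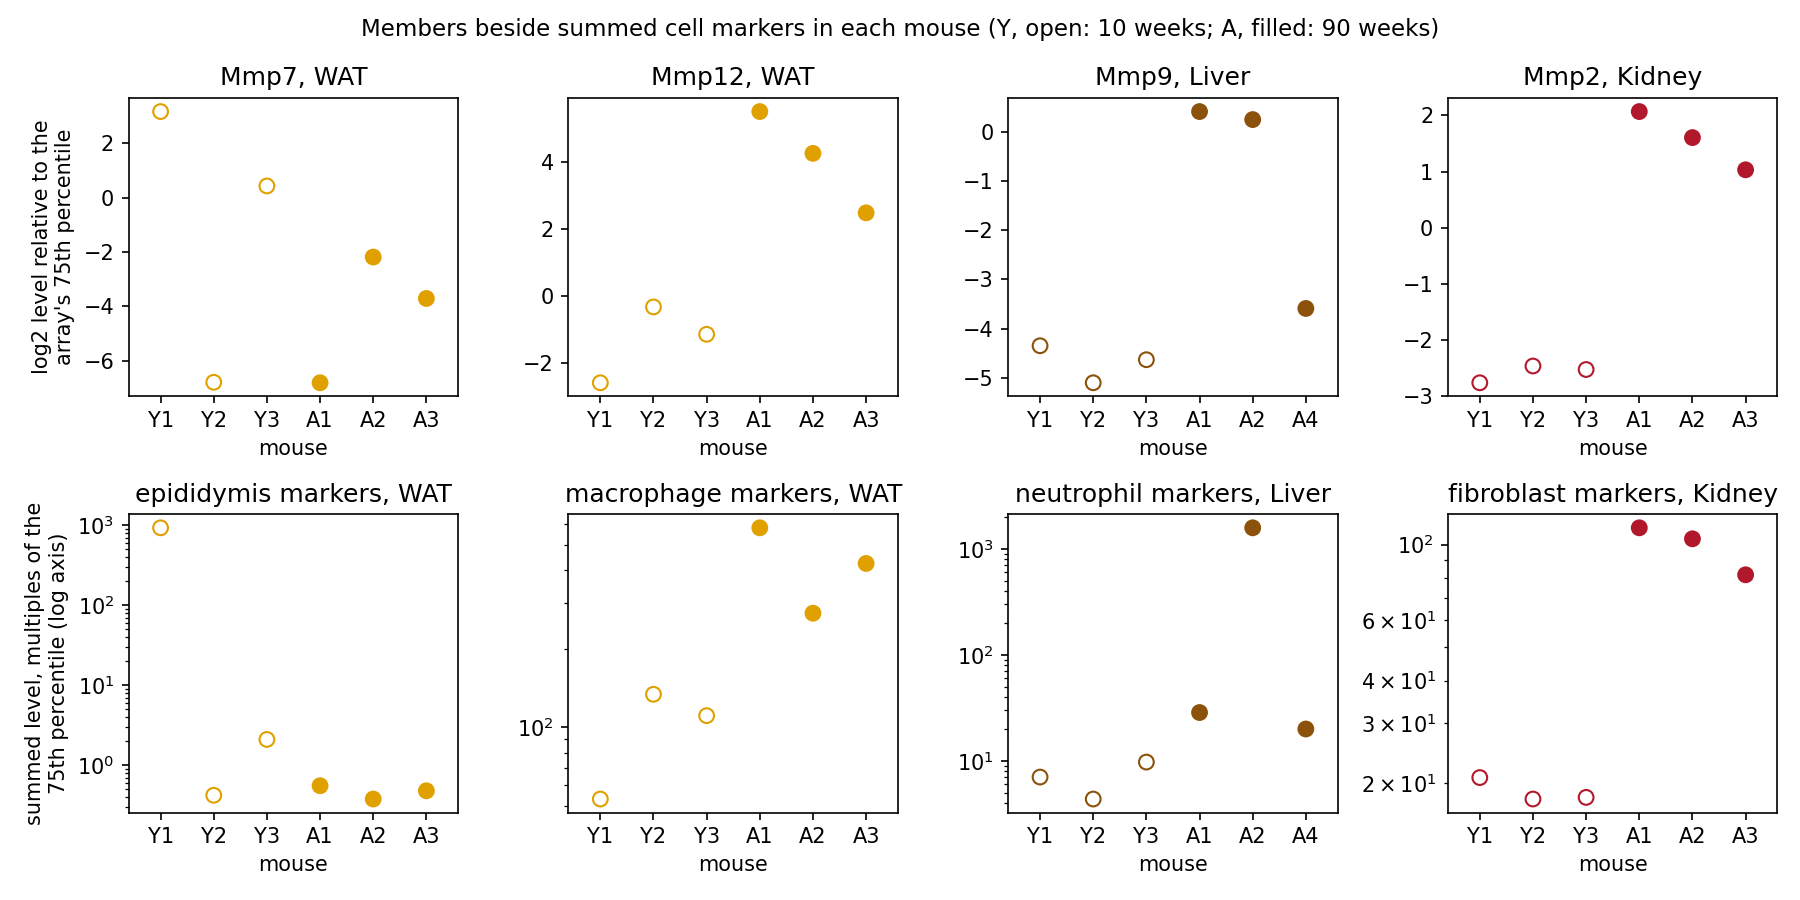
Level of a member in each mouse (upper row, vertical, log2 relative to the 75th percentile). The lower row shows the summed level of a marker list in the same mice (vertical, log scale, multiples of the 75th percentile). Mice run along the horizontal axis, 1 point each. The columns are Mmp7 and epididymis markers in WAT, Mmp12 and macrophage markers in WAT, Mmp9 and neutrophil markers in liver, and Mmp2 and fibroblast markers in kidney. Young mouse 1 is the highest in both rows of the first column, with Mmp7 at 3.16 and a marker sum of 928. In liver, aged mouse 1 has Mmp9 at 0.41 and a neutrophil sum of 28.6.

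Lymphocyte markers were higher in 8 of 9 in kidney with 1 lower (8.85, 7.31 and 8.25 in the young and 91.8, 64.8 and 57.4 in the aged mice), in 6 of 9 in WAT (6.11, 9.04 and 9.85 in the young and 54.3, 69.1 and 69.5 in the aged mice), in 4 of 9 in lung (19.3, 18.5 and 15.6 in the young and 87.3, 32.6 and 102 in the aged mice) and in 3 of 9 in liver (53.1, 61.4 and 43.9 in the young and 62.9, 47.3 and 48.9 in the aged mice). The brightest was Cd4 in kidney (-0.50) and liver (-0.44), Jchain in WAT (6.23) and Ptprc in lung (1.34). Smooth muscle markers were higher in 4 of 6 in kidney (21, 22.4 and 25 in the young and 62.6, 60.9 and 43.5 in the aged mice), lower in 3 of 6 in lung (102, 129 and 107 in the young and 74.3, 60.3 and 60.4 in the aged mice) and higher in 1 of 5 in liver, with 0 of 6 called in WAT (0 higher and 3 lower unadjusted by limma). Tagln was the brightest in kidney and Acta2 elsewhere, and Myocd was at background on every array of liver. Of the tissue markers, the liver set was lower in 2 of 6 in liver, the kidney set lower in 4 of 6 and higher in 1 in kidney (Kap brightest, -0.77), and limma called 0 of 6 in lung for the lung set and 0 of 6 in WAT for the white fat set (0 in both unadjusted). White fat markers were lower in 2 of 6 in lung, with Fabp4 the brightest (-2.40), and in kidney 5 of 6 were higher and 1 lower, with sums of 12.7, 14.1 and 12.4 in the young and 18, 24.2 and 32.1 in the aged mice and Fabp4 again the brightest (0.50). Liver markers were lower in 5 of 5 tested in kidney (351, 391 and 417 in the young and 125, 184 and 234 in the aged mice, Cyp2e1 brightest). Of the epididymis markers in WAT, 4 were tested and limma called 0 (0 unadjusted). The high values were in 1 mouse: Crisp1 stood at 7.58, Lcn5 at 8.76, Adam7 at 7.45 and Spag11a at 6.99 in young mouse 1. The part of these cells in the member results was not tested.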

How the data were processed

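The authors extracted total RNA with a column kit, labelled it with Cy3 and hybridised each sample to an Agilent array. The study's methods name a human kit, but the deposited files carry a mouse design. The deposited signal intensity per probe was background-subtracted by Agilent Feature Extraction 11.0.1.1 per the file headers and was not scaled between arrays. From 62976 spots per array, 1841 outlier spots over all arrays were left out and 0 were saturated. Of 56605 probes, 32994 (58.3%) were matched to a RefSeq symbol by accession without version. The log2 intensity minus the 75th percentile of the array was used; the brightest probe stood for a gene in a tissue. limma 3.58.1 (R 4.3.3) compared ages in each tissue with Benjamini-Hochberg adjustment over all features tested. Tables, promoter searches and figures used Python 3.11.15, pandas 2.3.3 and matplotlib 3.10.9. The fit was tested on simulated data. No 2 of the 24 arrays were identical in 276 pairs.

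Members and lists were chosen with earlier results of these data known. Genes named in full were the Timp genes, Mmp2 and Mmp14 in each tissue, and in each tissue up to 5 called members in each direction with the largest change, without overlap of the ages and with the brighter age well above background on all its arrays. Alternatives tried were normexp background correction (offset 16), quantile normalization, spike-in scaling on 350 spots, median centring, no filter and a stricter filter on dim probes, averaging the probes of a gene, 1 fit over all 24 arrays, a block for the replicate number, the Student's test of the study's methods, and leaving out each mouse. Leaving out WAT of young mouse 1 from the interaction test was chosen after seeing the data. The number of arrays limits the precision.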

Additional observations from a re-analysis of the deposited data

Results flagged for a closer look

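For 21 of the 39 members tested somewhere, the change with age differed among the 4 tissues by limma's interaction test over the 24 arrays, against 31.2% of 34167 features. The count was 13 without young mouse 2 of each tissue and 26 without WAT of young mouse 1. The adjusted p was 3.69e-07 for Timp1, 5.9e-05 for Mmp3, 0.000104 for Mmp14, 0.000162 for Mmp2 and 0.000204 for Adamts2. It was 0.00036 for Mmp15, 0.000424 for Adamts16, 0.00147 for Timp2, 0.00155 for Adamts8 and 0.00297 for Adamts10. For these 10 genes the call was made in 14 of 14 alternatives. The adjusted p was 0.0047 for Adamts9, 0.00663 for Adamts19, 0.00809 for Mmp19, 0.00929 for Mmp17 and 0.00959 for Mmp11. It was 0.0154 for Timp3, 0.0155 for Mmp10, 0.0167 for Adamts15, 0.0176 for Mmp23, 0.0316 for Adamts17 and 0.037 for Mmp7. Of 14 alternatives, 12 called Adamts9, Adamts19, Mmp19 and Timp3, 11 called Mmp17, Mmp11 and Mmp10, 10 called Mmp23, 8 called Adamts15 and Adamts17, and 7 called Mmp7. Some tests included tissues in which the probe was well above background on 0 of 6 arrays: liver for Mmp3, Adamts8 and Mmp10, liver and lung for Adamts16, and liver and kidney for Adamts19. The differences of background values there entered the test. The test used 1 probe of Adamts17, with changes of 0.30 in WAT (0.53 without aged mouse 3) and -0.49 in lung. Another probe had -2.81 and -2.07. Mmp19 was read by a probe with a kidney change of 3.29, where a second probe had 0.23. The change of Adamts9 was 1.02 in liver, 0.16 in lung, 0.22 in kidney and -1.0 in WAT. Adamts2 had changes of 0.99, -0.82, 2.73 and -0.22 and Adamts10 of 0.70, -0.22, 1.62 and -0.44 in the same order. With normexp background correction the liver changes of Adamts9 and Adamts10 were 0.56 and 0.40, and their liver calls were lost. Without single mice the WAT change of Adamts2 was -0.63 (young mouse 1) and 0.25 (aged mouse 3). That of Adamts10 in WAT was -0.85 (young mouse 1) and -0.05 (young mouse 3). The lung change of Adamts10 was -0.45 (aged mouse 1), -0.12 (aged mouse 2) and -0.09 (aged mouse 3). Mmp11 had 0.10, -0.85, 1.87 and 1.93, and Mmp19 had -0.27, 0.17, 3.29 and 1.88. The liver change of Mmp11 was 0.25 without aged mouse 2 and -0.09 without aged mouse 1, and the lung change of Mmp19 was 0.41 without aged mouse 1 and 0.07 without aged mouse 2. Without young mouse 1 the lung change of Mmp19 was -0.02.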

How the results depend on the processing

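Of 688 values of a named gene in a tissue under an alternative, 573 kept their direction and side of the threshold, 98 kept the direction and lost the call, 6 gained one and 11 changed sign. In kidney, Timp1, Timp2, Mmp2, Mmp14, Mmp7, Mmp3 and Mmp12 were called in 16 of 16 alternatives. The reversals were in changes that limma did not call, except that of Timp3 in kidney, a called change (-0.52, limma adjusted p = 0.00177). Mmp2 in liver was -0.037 with normexp and -0.12, -0.01, -0.17 and -0.19 without young mouse 2, young mouse 3, aged mouse 1 and aged mouse 2. Timp3 in lung was -0.026 with quantile normalization, -0.13 with spike-in scaling, and -0.05 and -0.12 without young mouse 1 and aged mouse 2. Timp3 in kidney was 0.071 with quantile normalization, and in WAT -0.15 without young mouse 1. The highest values with a mouse left out were 0.43, 0.20 and 0.58 for Mmp2 in liver, Timp3 in lung and Timp3 in WAT. The cause was not tested.

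The liver count of lower members (3) was 0 with spike-in scaling, 10 with no filter, 5 with all 24 arrays in 1 fit and 1 with the adjusted Student's test, which gave 1 higher in place of 10. Over all features, liver had 12841 lower with no filter and 7818 with all 24 arrays, in place of 4749. The adjusted Student's test gave 1321 higher and 1785 lower. The lung counts (0 higher, 3 lower) were 1 higher with quantile normalization and with spike-in scaling, 1 lower with no filter and with all 24 arrays, 0 lower with the adjusted Student's test, and 2 higher and 7 lower with the unadjusted one. All features of the lung had 304 higher and 136 lower with no filter and 591 and 383 with all 24 arrays. They had 99 and 132 with the adjusted Student's test and 2309 and 5027 with the unadjusted one. Kidney lower members (4) were 0 with spike-in scaling and 9 with no filter, where 19342 of all features were lower. The WAT counts (1 higher, 2 lower) were 1 lower with normexp and with quantile normalization, 0 higher and 1 lower with no filter, 8 and 5 with all 24 arrays, 0 and 0 with the adjusted Student's test, and 4 higher with the unadjusted one. All features of WAT rose as well, from 605 higher and 174 lower to 3263 and 3127 with all 24 arrays. With the unadjusted Student's test they were 2646 and 2668, and with no filter 413 and 76. Leaving out single mice gave 1 to 12 higher and 0 to 3 lower in liver, 0 to 3 and 0 to 3 in lung, 22 to 24 and 4 to 5 in kidney, and 0 to 0 and 1 to 2 in WAT. Counts over all features without single mice of liver, lung and WAT are given above, beside the member counts. The interaction count (21) was 13 to 23 without a replicate number of an age and 26 without WAT of young mouse 1. The cause was not tested.

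The mice share only a number: same-numbered mice deviated together with r of 0.0564 and -0.0933 in liver, -0.0975, -0.0613 and -0.166 in lung, 0.0981, 0.046 and 0.0298 in kidney, and -0.0098, -0.0687 and 0.181 in WAT. With the replicate block the counts were 3 higher and 0 lower in liver, 0 lower in lung, and 0 higher and 1 lower in WAT; other member counts stayed within 1.5 times. A slide block was not run, since each tissue had its own slide. Of all features, the block called 1068 higher and 630 lower in liver, 1 and 0 in lung and 323 and 41 in WAT. The adjusted Student's test called 1 higher and 0 lower of all features in WAT. Of 544 list counts under alternatives, 112 moved by over 1.5 times. Signal over background limited the 5 members tested in no tissue.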
